A study of Rattus norvegicus with 6 samples.

Results

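Caveolae and the transcytosis machinery were examined through 10 genes, Cav1, Cav2, Plvap, Mfsd2a, Cltc, Dnm2, Ehd2, Pacsin2, Lrp1 and Ager, taken by symbol from the deposited count table. Each symbol matched 1 of the 33566 rows, and all 10 had at least the 10 summed counts needed to be among the 14603 genes tested. The table came from primary rat brain microvascular endothelial cells (rBMECs), purified in culture and used after 1 passage. The cells were isolated from the cortex of SD rats 18 to 22 days old, while the paper's methods name the cerebral forebrain. The Hcy group comprised 3 libraries from cells given homocysteine (Hcy), a sulfur-containing amino acid of the methionine cycle, labelled 100 μM for 24 h, while the treatment protocol also names a pre-prepared 50 μM solution. The vehicle group (Veh) comprised 3 libraries from cells given sterile water, and the labels name no genetic change in either group. The comparison asked which transcripts differed in rBMECs after Hcy. Reads counted on genes ranged from 14024997 to 16764584 per library, so that 3 counts, taken as the floor of detection, equal 0.178 to 0.215 CPM (the count scaled to library size). Whether the libraries came from separate isolations was not stated for each library, so p-values measure the spread between these libraries.

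Endothelial cells carry molecules across their body in vesicles, a route called transcytosis. Caveolae are flask-shaped invaginations built from caveolins and cavins, and clathrin-coated pits are the other main entrance, mostly for receptors and their cargo. Endothelium of the blood–brain barrier (BBB) is known for few caveolae, and Mfsd2a, a lysophospholipid transporter, is known to keep them few. Plvap forms the diaphragms of caveolae and fenestrae and is low in mature barrier endothelium. Lrp1 and Ager (RAGE) are known for moving amyloid-β out of and into the brain, respectively.

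The start-site regions of the caveolin pair, Plvap and Ager are shown because these genes span the range from the most abundant transcript to one of the scarcest, and because the study was concerned with DNA methylation, which in mammals falls on CpG dinucleotides. Methylation was not measured in these libraries. Each run covers 250 bases before to 50 bases after an annotated start, 5′ to 3′ on the gene's strand, from RefSeq on build GRCr8, and capitals mark each CpG. The 2 Cav1 runs are chr4:46606288-46606587 and chr4:46607722-46608021, and the Cav2 run is chr4:46582431-46582730, all on the plus strand. The Plvap run is chr16:18231230-18231529 and the Ager run chr20:4155636-4155935, both on the minus strand.
Cav1, first start: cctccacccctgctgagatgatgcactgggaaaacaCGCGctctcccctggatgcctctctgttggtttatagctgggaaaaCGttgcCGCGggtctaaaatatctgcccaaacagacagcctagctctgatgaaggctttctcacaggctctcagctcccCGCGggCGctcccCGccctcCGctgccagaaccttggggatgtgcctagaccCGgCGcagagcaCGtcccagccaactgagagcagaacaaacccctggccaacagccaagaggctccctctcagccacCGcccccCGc
Cav1, second start: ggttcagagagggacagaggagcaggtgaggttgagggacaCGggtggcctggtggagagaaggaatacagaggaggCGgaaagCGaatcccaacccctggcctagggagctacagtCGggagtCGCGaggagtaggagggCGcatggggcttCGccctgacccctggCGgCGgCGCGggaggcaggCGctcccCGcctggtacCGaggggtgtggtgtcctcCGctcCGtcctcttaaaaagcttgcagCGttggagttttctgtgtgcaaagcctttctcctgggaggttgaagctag
Cav2: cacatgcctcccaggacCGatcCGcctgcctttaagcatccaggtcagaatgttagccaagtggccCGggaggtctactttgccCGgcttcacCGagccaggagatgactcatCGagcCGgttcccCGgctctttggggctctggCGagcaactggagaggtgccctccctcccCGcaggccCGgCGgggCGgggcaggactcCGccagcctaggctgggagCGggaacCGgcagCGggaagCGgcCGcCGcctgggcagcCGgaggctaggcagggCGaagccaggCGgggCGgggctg
Plvap: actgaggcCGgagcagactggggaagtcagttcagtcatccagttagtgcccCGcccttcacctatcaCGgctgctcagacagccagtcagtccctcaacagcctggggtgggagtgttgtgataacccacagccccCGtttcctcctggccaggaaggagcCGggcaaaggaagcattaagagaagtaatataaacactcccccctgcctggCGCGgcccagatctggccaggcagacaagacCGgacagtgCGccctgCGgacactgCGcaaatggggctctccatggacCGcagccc
Ager: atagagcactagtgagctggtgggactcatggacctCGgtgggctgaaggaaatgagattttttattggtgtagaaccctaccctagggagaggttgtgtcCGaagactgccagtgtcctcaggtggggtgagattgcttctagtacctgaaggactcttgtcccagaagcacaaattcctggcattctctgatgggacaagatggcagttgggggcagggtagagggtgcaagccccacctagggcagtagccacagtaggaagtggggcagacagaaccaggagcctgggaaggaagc

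These runs held 15 CpGs at the first Cav1 start, 18 at the second, 24 in Cav2, 12 in Plvap and 2 in Ager. The median over the 33469 start-site regions of the RefSeq table was 7. Cav2 thus had more CpGs than 82.0% of regions, and 13.6% of regions had fewer than Ager. Among the regions not printed, Cltc and Dnm2 held 21 each, Ehd2 18, Lrp1 16 and Pacsin2 4, and Mfsd2a was not in the table. Across the 10 member regions, GGGCGG (the letters of a GC box, which contain a CpG) was found on either strand in 7, against 33.1% of all regions. TATAAA was found in 2 of the 10, the first Cav1 start and Plvap, against 14.2% of all regions. CCAAT was found in 4, against 37.5%, and GATAAG in 0, against 7.05%. These matches describe letters only.

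Endothelial markers stood at high levels in all libraries, summing to at least 8553 CPM in each. Cdh5, which encodes VE-cadherin, was at 1962 ± 104 CPM in Hcy versus 1796 ± 231 CPM in Veh (both mean ± SD, n = 3). None of the 11 endothelial markers tested passed an adjusted p of 0.05 in edgeR's quasi-likelihood test, though 5 had an unadjusted p of at most 0.05, against 13.4% of all genes. Of these 5, Kdr, Flt1 and Vwf had log2 fold changes above 0 and Tek and Eng below 0. Cldn5, the main claudin of the BBB, had 0 counts in all 6 libraries, which allows up to 0.215 CPM by counting error alone. Whether reads could be assigned to its row was not tested, and the paper's Western blots show Claudin-5 protein in rBMECs. Pecam1 of the endothelial markers and Abcb1a of the barrier markers were not listed by symbol. Of the 7 barrier markers tested, Slc7a5, an amino acid transporter, passed and rose from 122 to 161 CPM on average. The log2 fold changes of the other 6 were below 0 and did not pass. Of all genes tested, 2.34% passed and 53.1% were below 0. Among those 6 markers, the groups were fully separated in the glucose transporter Slc2a1 (log2 fold change -0.32, edgeR adjusted p = 0.0536) and in Slco1a4 (log2 fold change -0.53, edgeR adjusted p = 0.187). Both were lower in Hcy, and 9.27% of all genes were separated in that direction. Aqp4 and Gjb6 of the astrocyte list and Cx3cr1, P2ry12 and Ptprc of the microglia list also had 0 counts. Summed over the markers tested, astrocytes reached at most 0.761 CPM in a library, microglia 0.776 CPM, epithelial cells 0.955 CPM, neurons and oligodendrocytes 12.5 CPM and fibroblasts 91.2 CPM. The 12 markers of pericytes and smooth muscle cells summed to 681 to 709 CPM in Hcy and 1124 to 1353 CPM in Veh. That sum was carried by Tagln, Acta2 and Cnn1, contractile genes that passed the test and were lower in Hcy, while the other 9 did not pass and had log2 fold changes on both sides of 0. Of the pericyte markers, Pdgfrb, Rgs5, Cspg4 and Kcnj8 averaged 2.72, 0.469, 0.764 and 0.334 CPM in Hcy and 1.64, 0.187, 0.232 and 0.668 CPM in Veh. The part of this shift in the values below was not tested. Veh replicate 3 stood apart from Veh replicates 1 and 2, with a chi-square per degree of freedom of 29.5 and 26.2 between their counts against 5.77 to 7.76 for the other pairs within a group. In bulk libraries, a change in the share of a cell type cannot be told apart from a change in RNA per cell.

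None of the 10 genes passed an adjusted p of 0.05 from edgeR's quasi-likelihood test. Accordingly none met the thresholds of the study's rule, which also asks for a fold threshold of 1 on the log2 scale, in either direction. Of all genes tested, 2.34% passed the adjusted p and 0.486% passed both thresholds in edgeR's test. The study applied its rule to DESeq2, with which 0 members and 100 of all genes passed both thresholds here. An unadjusted p of at most 0.05 was reached by 1 member, Mfsd2a, against 13.4% of all genes (5.95% counting only lower ones), and by 0 members with DESeq2. The members' adjusted p ran from 0.346 to 0.988 in the edgeR test. Their log2 fold changes split evenly, 5 above and 5 below 0 (53.1% of all genes were below), and their median was -0.01 beside -0.02 for all genes tested. For 7 members the absolute log2 fold change was under 0.2, as it was for 59.4% of all genes. Groups were fully separated in 4 members, against 20.1% of all genes. These were Dnm2 and Pacsin2, higher in Hcy, and Mfsd2a and Ager, lower in Hcy as were 9.27% of all genes. The 7 members with a mean of 1326 or more counts per library had 95% intervals that kept their Hcy to Veh ratio between 0.860 and 1.22. In contrast, the 3 members with a mean of 63.8 or fewer counts, Mfsd2a, Lrp1 and Ager, had wider intervals, the lowest reaching down to 0.408. Ratios within each interval remain compatible with these libraries, and no limit of detection was computed. Without Veh replicate 3 the number of members past the adjusted p was also 0.

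**Figure D1:**
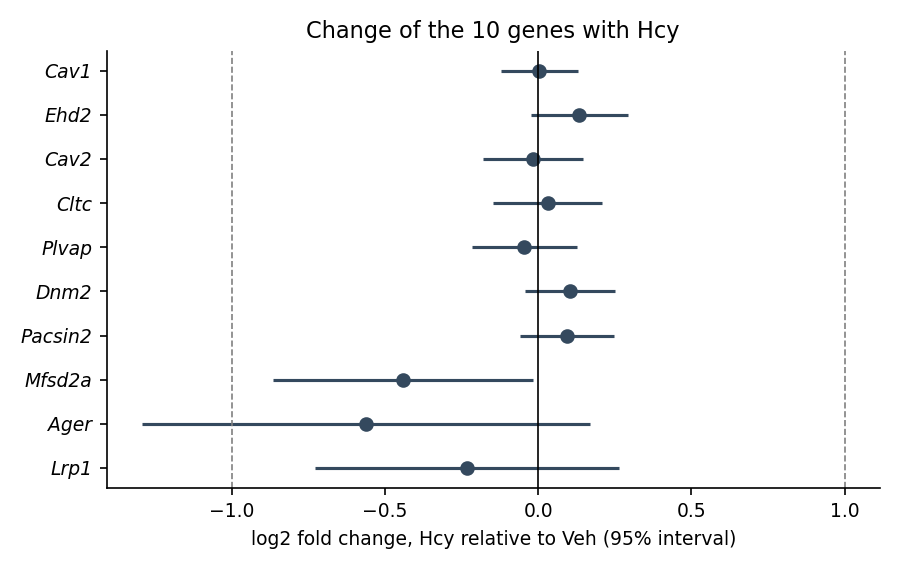
Log2 fold change of each gene in Hcy relative to Veh (horizontal axis), with points for the edgeR estimate and bars for its 95% interval. Genes are ordered by level per gene length, the solid line marks 0 and the dashed lines the threshold of 1 in either direction. No estimate reaches a dashed line, and the intervals of Mfsd2a, Ager and Lrp1, at the bottom, are the widest.

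Cav1 encodes caveolin-1, the scaffold protein without which endothelial caveolae do not form. The deposited table lists it on chromosome 4 from 44597123 to 44630200 on the plus strand. Its CPM was 3452, 3536 and 3424 in Hcy replicates 1 to 3 and 3434, 3409 and 3543 in Veh replicates 1 to 3. The groups overlapped fully, at 3471 ± 58.2 CPM in Hcy versus 3462 ± 71.1 CPM in Veh (both mean ± SD, n = 3). The estimated log2 fold change, given with its standard error (SE), was 0.00 (SE 0.06, edgeR adjusted p = 0.988), with a 95% interval from -0.12 to 0.13. Libraries of a group differed by 1.68% (Hcy) and 2.05% (Veh) as a coefficient of variation.

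Cav2, caveolin-2, which assembles with caveolin-1, is listed upstream of it on the same strand, from 44573264 to 44580638, with 16484 bases between the 2 genes. It measured 497, 534 and 557 CPM in the Hcy libraries and 506, 559 and 542 CPM in the Veh libraries. These ranges nearly coincided. The log2 fold change of Cav2 was -0.02 (SE 0.07, edgeR adjusted p = 0.954), within a 95% interval of -0.18 to 0.15. Per gene length, Cav1 was 6.39 ± 0.385 times (SD, n = 3) the level of Cav2 in Hcy and 6.30 ± 0.338 times (SD, n = 3) in Veh, and these ratios overlapped between the groups.

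Ehd2 encodes an ATPase that sits at the neck of caveolae and holds them at the membrane, and is listed on chromosome 1 from 77847600 to 77865870. It was at 562, 559 and 527 CPM in Hcy and at 536, 485 and 481 CPM in Veh. Only Veh replicate 1 reached into the range of the Hcy libraries. Its log2 fold change of 0.13 (SE 0.07) fell short of significance (edgeR adjusted p = 0.479), and the 95% interval ran from -0.03 to 0.29. Pacsin2, a membrane-bending protein of the same neck listed on chromosome 7 from 124223633 to 124317379, was at 110, 107 and 107 CPM in Hcy and 105, 101 and 98.1 CPM in Veh. Each Hcy library was above each Veh library, by a small margin. Its estimated change was 0.09 in log2 units (SE 0.07, edgeR adjusted p = 0.633).

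Plvap, listed on chromosome 16 from 19906318 to 19918689, was readily detected. It measured 86.0, 81.6 and 86.1 CPM in the Hcy libraries and 90.4, 81.4 and 90.2 CPM in the Veh libraries. The lowest library was Veh replicate 2 and the highest Veh replicate 1, so the Veh group spanned all Hcy values. For Plvap the estimated log2 fold change was -0.05 (SE 0.08, edgeR adjusted p = 0.864), with a 95% interval from -0.22 to 0.13. With a library left out it ran from -0.10 without Veh replicate 2 to -0.02 without Veh replicate 1, Veh replicate 3 or Hcy replicate 2.

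Mfsd2a, listed on chromosome 5 from 140642885 to 140657745, was scarce and had the smallest p of the 10 genes. Reads numbered 46, 44 and 50 across the Hcy libraries and 77, 61 and 59 across the Veh libraries, or 3.08 ± 0.193 against 4.18 ± 0.352 CPM (mean ± SD, n = 3). All Hcy libraries were below all Veh libraries. The estimate for Mfsd2a was a log2 fold change of -0.44 (SE 0.19, 95% interval -0.87 to -0.02), with an unadjusted p of 0.0432 and an adjusted p of 0.346 from edgeR's test, which did not pass. With DESeq2 its unadjusted p was 0.115. Without Veh replicate 3 its log2 fold change was -0.46 (edgeR adjusted p = 0.278). Counting error alone amounts to 13.3% of such a count, above the spread seen between libraries of a group (6.27% in Hcy and 8.43% in Veh). Per gene length, Plvap exceeded Mfsd2a 29.2 ± 1.49 times (SD, n = 3) in Hcy and 22.2 ± 1.23 times (SD, n = 3) in Veh. This ratio did not overlap between the groups and follows the Mfsd2a values, and it was chosen after they were seen, so no test was made of it.

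**Figure D2:**
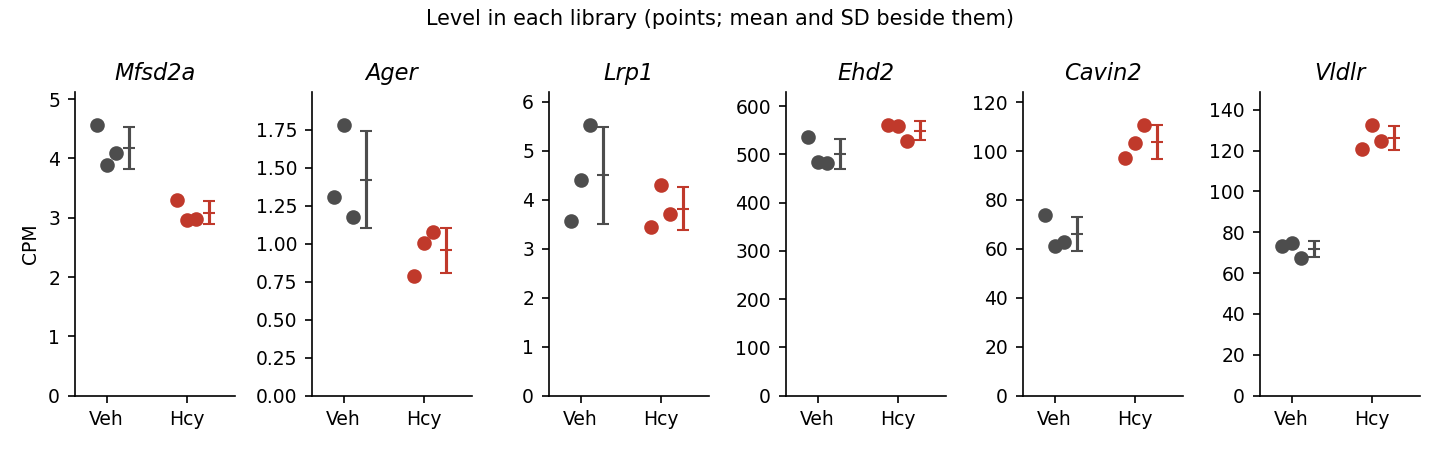
CPM on linear axes from 0, 1 panel per gene, for Mfsd2a, Ager, Lrp1 and Ehd2 and for Cavin2 and Vldlr of the wider lists. Points are the 3 libraries of each group and the bar beside them is the mean ± SD. Veh and Hcy libraries are apart in Mfsd2a, Ager, Cavin2 and Vldlr and overlap in Lrp1 and Ehd2.

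Cltc encodes the clathrin heavy chain, the triskelion leg of coated pits, and is listed on chromosome 10 from 74014562 to 74070266. It was at 643, 700 and 671 CPM in Hcy and 694, 685 and 592 CPM in Veh. Veh replicate 3 was the lowest of the 6 libraries. The log2 fold change was 0.03 (SE 0.08, edgeR adjusted p = 0.921) and became -0.04 without Veh replicate 3 (edgeR adjusted p = 0.736). Dnm2, the widely expressed dynamin that pinches off both coated pits and caveolae, is listed on chromosome 8 from 22458899 to 22540524. It was at 145, 145 and 150 CPM in Hcy and 139, 137 and 134 CPM in Veh. Every Hcy library was above every Veh library. Its log2 fold change of 0.10 (SE 0.06) did not pass (edgeR adjusted p = 0.561), with a 95% interval from -0.04 to 0.25. The last 101 bases of Dnm2 overlap Tmed1 on the other strand, with 1805 reads in all against 13117 for Dnm2, and whether counting used the strand is not given in the sources used here.

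Lrp1, a large endocytic receptor, is listed on chromosome 7 from 70846344 to 70926903. Reads numbered 48, 64 and 62 across the Hcy libraries and 60, 69 and 80 across the Veh libraries. The groups overlapped, and the highest library was Veh replicate 3. At 3.82 ± 0.437 CPM in Hcy versus 4.50 ± 0.992 CPM in Veh (both mean ± SD, n = 3), its log2 fold change was -0.23 (SE 0.22, edgeR adjusted p = 0.723). This value was -0.06 without Veh replicate 3 (edgeR adjusted p = 0.917) and -0.38 without Veh replicate 1 (edgeR adjusted p = 0.583). The Lrp1 chaperone Lrpap1, a gene of the receptor list, was named after its values were seen and stood far higher than its client, at 31.3 against 0.283 CPM per kilobase of gene length over the 6 libraries. Lrpap1 was at 92.6 ± 1.82 CPM in Hcy versus 93.1 ± 0.983 CPM in Veh (both mean ± SD, n = 3).

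Ager, which encodes RAGE, an immunoglobulin-type receptor for advanced glycation end products, S100 proteins and amyloid-β, is listed on chromosome 20 from 4363152 to 4366079 on the plus strand, whereas RefSeq on GRCr8 has it on the minus strand. Its Hcy libraries held 11, 15 and 18 reads and its Veh libraries 22, 28 and 17. As CPM, 0.790, 1.01 and 1.07 in Hcy lay below 1.31, 1.78 and 1.18 in Veh, although Hcy replicate 3 had more reads than Veh replicate 3 before scaling. The log2 fold change of -0.56 had the largest size among the 10 genes and also the largest standard error, 0.32 (edgeR adjusted p = 0.518). Its 95% interval ran from -1.29 to 0.17, and counting error alone amounts to 23.2% of such a count. The log2 fold change was -0.68 without Veh replicate 3 (edgeR adjusted p = 0.335) and -0.37 without Veh replicate 2 (edgeR adjusted p = 0.760). Ager lies wholly within LOC103689965, a gene on the other strand with 29 reads in all against 111 for Ager.

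Per kilobase of the deposited gene length, the 10 genes covered a wide range of levels. Cav1 was at 1357 ± 22.8 CPM per kilobase (SD, n = 3) in Hcy and 1353 ± 27.8 (SD, n = 3) in Veh, and was the gene at rank 43 of the 14603. Ehd2 and Cav2 followed at 271 and 213 CPM per kilobase in Hcy and 247 and 215 in Veh. Cltc was next, at 111 CPM per kilobase in Hcy and 108 in Veh. Plvap, Dnm2 and Pacsin2 formed a middle tier at 42.1, 39.3 and 30.7 CPM per kilobase in Hcy and 43.5, 36.5 and 28.8 in Veh. These 7 genes each lay above 80.7% or more of all genes tested. The scarce tier was Mfsd2a at 1.45 CPM per kilobase in Hcy and 1.96 in Veh, Ager at 0.484 and 0.720, and Lrp1 at 0.259 and 0.306. Here 29.0% of tested genes lay below Mfsd2a, 17.7% below Ager and 12.1% below Lrp1. The order was the same in both groups, and no 2 neighbours in it overlapped within a group over its 3 libraries. As a ratio, the closest pair was Plvap and Dnm2 in Hcy, where the lowest Plvap library (40.7) exceeded the highest Dnm2 library (40.1) narrowly.

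**Figure D3:**
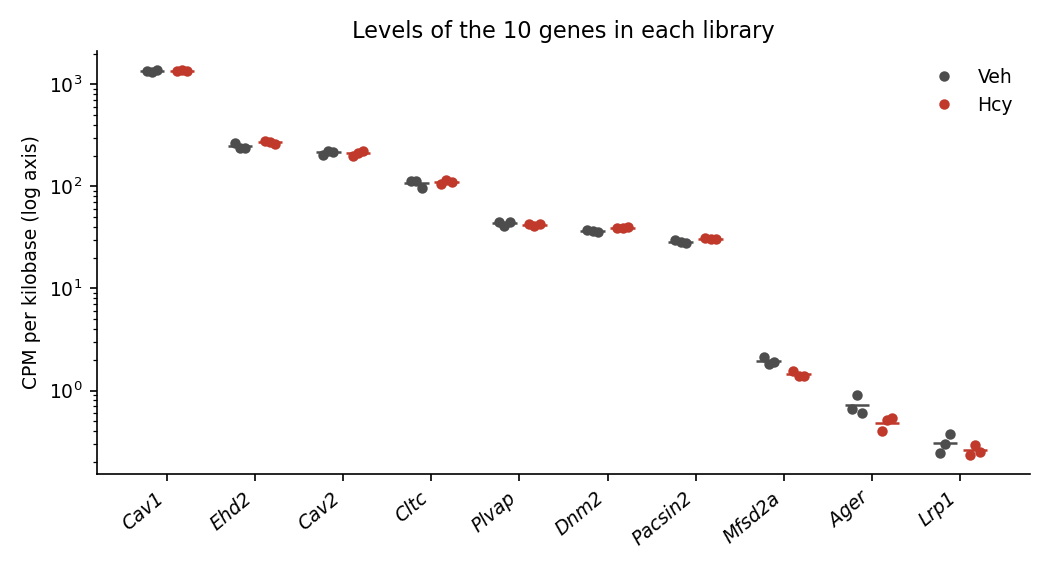
Level of the 10 genes in CPM per kilobase of gene length (vertical log axis) in each Veh library (grey) and Hcy library (red), with a line at each group mean. Cav1 is highest at about 1357 in Hcy and 1353 in Veh, 7 genes lie at 27.9 or above, and Mfsd2a, Ager and Lrp1 lie at 2.14 or below.

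Other genes of the same pathway were followed through 6 lists written by hand from their roles. Of the 90 genes, 87 were in the table and 79 were tested. Of these 79, 2 passed the adjusted p of 0.05 from edgeR's test, both higher in Hcy as were 1.32% of all genes. Their median log2 fold change was 0.01, and 20 of the 79 showed full separation of the groups, beside 20.1% of all genes. The count of 2 became 7 without Veh replicate 3, 4 with DESeq2, and 1 without each of Hcy replicate 2, Hcy replicate 3 and Veh replicate 2. Over all 14603 genes, the count of 341 became 975, 604, 99, 80 and 134 in these settings, in the same order.

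Among caveolins, cavins and neck proteins other than the 10 genes, 1 of 12 tested passed, against 2.34% of all genes. None of the 12 was lower with a passing p, and the median log2 fold change was 0.14. The number that passed was 4 without Veh replicate 3 and 2 with DESeq2. Over all genes it rose from 341 to 975 and 604, respectively. Before adjustment 4 of the 12 reached 0.05, against 13.4% of all genes, and 6 had fully separated groups, against 20.1%. Beside Cavin2, those 4 were Ehd4 (log2 fold change 0.24), Ehd1 (-0.24) and Pacsin3 (-0.46), relatives of Ehd2 and Pacsin2 named after their values were seen, with edgeR adjusted p of 0.0953, 0.199 and 0.198. The gene that passed was Cavin2, a coat protein of caveolae. It rose from 74.0, 61.1 and 62.8 CPM in Veh replicates 1 to 3 to 97.0, 103 and 111 CPM in the Hcy libraries. Its log2 fold change was 0.65 (SE 0.10, edgeR adjusted p = 0.0117), short of the fold threshold. The adjusted p of Cavin2 was 0.0551 without Hcy replicate 2, 0.0783 without Hcy replicate 3 and 0.0523 without Veh replicate 2 in that test. Cavin1, the cavin needed for caveola formation, named after its values were seen, was at 2733 ± 55.5 CPM in Hcy versus 2511 ± 153 CPM in Veh (both mean ± SD, n = 3), with a log2 fold change of 0.12 and an edgeR adjusted p of 0.484. Per gene length, Cav1 exceeded Cavin1 1.59 ± 0.0505 times (SD, n = 3) in Hcy and 1.73 ± 0.0679 times (SD, n = 3) in Veh, a ratio chosen after the values were seen, not tested, and without overlap between the groups. Of the muscle forms, which were not tested, Cav3 had 0 counts in all libraries, and Cavin4 had 7 counts in Hcy replicate 2 and at most 1 in each other library.

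Among other receptors of transcytosis and lipoprotein uptake, 1 of 18 tested passed, against 2.34% of all genes, with a median log2 fold change of 0.03. Without Veh replicate 3 it was 3 of the 18, and with DESeq2 it was 2. The count over all genes rose from 341 to 975 and 604 in these settings. Before adjustment 5 of the 18 reached 0.05, against 13.4% of all genes, and 5 had fully separated groups, against 20.1%. Among those at the unadjusted threshold that did not pass, named after their values were seen, the log2 fold change was above 0 for Scarb1 (0.22, edgeR adjusted p = 0.231) and below 0 for Igf1r (-0.50, edgeR adjusted p = 0.113) and Lrp8 (-0.31, edgeR adjusted p = 0.193). Vldlr, the very low density lipoprotein receptor, rose from 73.3, 75.0 and 67.3 CPM in Veh to 121, 133 and 125 CPM in Hcy. The lowest Hcy library was well above the highest Veh library. Its log2 fold change was 0.81 (SE 0.08, edgeR adjusted p = 0.00134), also short of the fold threshold. The difference between Vldlr and its relative Lrp1 in their response was not tested.

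In the remaining lists 0 genes passed. Of 19 clathrin coat genes tested, 0 had an unadjusted p of at most 0.05 in edgeR's test, 0 passed the adjusted p with DESeq2, and the median log2 fold change was -0.03. The smallest p there was that of Itsn1, a scaffold of coated pits, with a log2 fold change of -0.17 (edgeR adjusted p = 0.57), or -0.26 without Veh replicate 3 (edgeR adjusted p = 0.126). Of 9 scission genes, 2 reached 0.05 before adjustment, as did 13.4% of all genes, with Snx18 first (log2 fold change -0.22, edgeR adjusted p = 0.187). Of 5 genes for RAGE ligands and its cytoplasmic partner, 1 did, S100a9, which encodes an S100 protein (log2 fold change 0.87, edgeR adjusted p = 0.107). Of 16 Rab, Arf and SNARE genes, 2 did, with Vamp8, a SNARE of vesicle fusion, first (log2 fold change -0.33, edgeR adjusted p = 0.304). Without Veh replicate 3 the log2 fold change of Vamp8 was -0.15 (edgeR adjusted p = 0.182). With DESeq2 also, 0 genes of the scission, RAGE ligand and vesicle lists passed the adjusted p. The other scission gene at the unadjusted threshold was Sh3gl2, named after its values were seen. Its log2 fold change was above 0 (0.72, edgeR adjusted p = 0.31). In the scission list the median log2 fold change was 0.18, and 4 of the 9 had fully separated groups, against 20.1% of all genes.

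**Figure D4:**
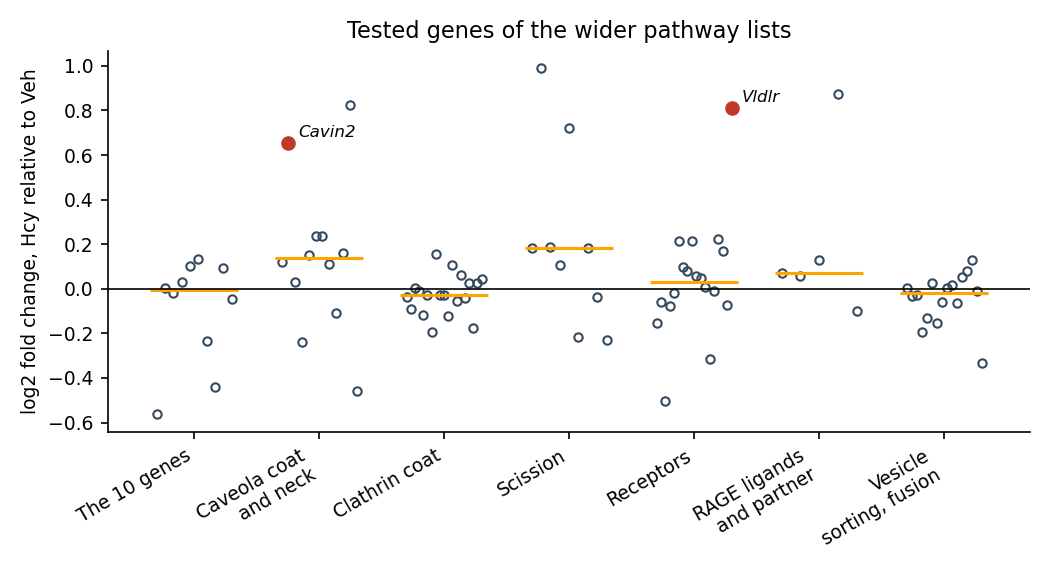
Log2 fold change in Hcy relative to Veh (vertical axis) of each tested gene, by list, with orange lines at list medians. Open points did not pass the adjusted p of 0.05 and filled red points, Cavin2 at 0.65 and Vldlr at 0.81, did.

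The profile of Mfsd2a over the 6 libraries, the member with the smallest p, was compared with those of 11787 genes of at least 1 CPM on average. The nearest were Mmp19, a matrix metalloproteinase, Rbm14 and Pwwp2b, at a root mean square difference of 0.03, 0.05 and 0.05 in centred log2 CPM. Their log2 fold changes of -0.45, -0.35 and -0.41 lie near that of Mfsd2a because likeness over these same libraries chose them, so they are a description, with no test. The Mfsd2a profile itself varies less within a group than its counting error of 13.3%.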

How the data were processed

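For 6 libraries of rBMECs the authors deposited unnormalized counts per gene, with gene positions and lengths. The submitters' processing notes name fastp, HISAT2 2.2.1, StringTie 2.2.3, Cufflinks, featureCounts 2.0.6 and DESeq2 1.42.0, and mRatBN7.2 (rn7). The table names no build, and its Cacna1c row lies outside both intervals given for that gene in the paper's methods, so positions are printed as listed, with no build. A second table with the authors' own DESeq2 comparison (size-factor-scaled signal, fold changes and p-values) was not used.

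Computation used R 4.3.3, edgeR 4.0.16 and DESeq2 1.42.0. Genes with at least 10 summed counts were scaled by TMM, and Hcy was set against Veh by the quasi-likelihood test of edgeR in a model of treatment alone, with Benjamini-Hochberg adjustment over all 14603 genes. CPM is TMM-normalized. Intervals are 95% intervals from the edgeR standard error, and the floor of 3 counts covers counting error only. The code was tested on simulated data.

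The members and lists were chosen with earlier results of these data known. Named are all 10 members, the genes of each list that passed (at most 4) or else the gene with the smallest p, the 3 profiles nearest to the member with the smallest p, and, where so marked, genes picked with values in view. Cell-type markers named for their p or for separation of the groups were also picked with values in view. Alternatives were other scalings, count filters, DESeq2, a replicate block and leaving out each library. Same-numbered Hcy and Veh libraries are not stated to share an isolation. Some results are not reported here.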

Additional observations from a re-analysis of the deposited data

How the results depend on the processing

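The number of members past the adjusted p of 0.05 was 0 under all 12 alternatives, and no member changed its side of that threshold. Directions changed for 3 members, whose log2 fold changes lay close to 0 and ran, with each library left out in turn, from -0.0101 to 0.0205 (Cav1), from -0.0553 to 0.0258 (Cav2) and from -0.0387 to 0.0723 (Cltc). Cav1 was below 0 without Hcy replicate 2, Veh replicate 1 or Veh replicate 2, Cav2 above 0 without Hcy replicate 1 or Veh replicate 2, and Cltc below 0 without Hcy replicate 2 or Veh replicate 3. The other 7 kept their direction. Over all genes, 341 passed the adjusted p, 604 with DESeq2 and between 80 (without Hcy replicate 1, and without Hcy replicate 3) and 975 (without Veh replicate 3) with a library left out. With the fold threshold 71 passed, 109 with no count filter beyond 1 count, and between 39 and 119 with a library left out. In the wider lists 2 genes passed, 4 with DESeq2 and between 1 and 7 with a library left out. The cause of these changes was not tested. Leaving out a library leaves fewer samples, but the highest counts, 975, 119 and 7, were all reached without Veh replicate 3. Samples with the same number had deviations from their group means that correlated at 0.0237, 0.166 and 0.0581 across genes. The mean was 0.0828, against -0.0415 for different numbers. Hcy replicates 2 and 3 correlated best with the Veh replicate of their own number, but Hcy replicate 1 with Veh replicate 3 (0.129). Since the numbers are not stated to mark pairs, they were not taken as pairs in the main test. With the replicate block, 0 members, 2 genes of the wider lists and 298 of all genes passed, 82 with the fold threshold. Counting error was largest for Ager, Mfsd2a and Lrp1 among the members, at 23.2%, 13.3% and 12.5% of a count, and the spread of Lrp1 between Veh libraries (22.0%) was above it.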
